A study of Caenorhabditis elegans with 16 samples.

Results

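The genes described here encode the neurotransmitter receptors of *Caenorhabditis elegans* whose names begin with *acr*, *lgc*, *glr*, *nmr*, *gar*, *ser*, *dop*, *tyra*, *octr*, *mgl* or *gbb*. They were chosen by name and protein-coding biotype alone, which gave 108 genes among 21982 genes in the deposited count table, 20098 of them protein-coding. By name, 21 are nicotinic-type acetylcholine receptor subunits (*acr*), 53 are subunits of other pentameric ligand-gated ion channels (*lgc*), 10 are ionotropic glutamate receptor subunits (*glr* and *nmr*) and 24 are G protein-coupled receptors (*gar*, *mgl*, *gbb*, *ser*, *dop*, *tyra* and *octr*). Of the 108, 92 had enough reads to be tested: 20 *acr*, 39 *lgc*, 9 ionotropic glutamate and all 24 G protein-coupled genes. The 16 that were not tested are *acr-6*, *glr-3* and 14 *lgc* genes (*lgc-5*, *-6*, *-8*, *-14*, *-15*, *-16*, *-17*, *-18*, *-19*, *-24*, *-29*, *-36*, *-48* and *-51*). Each of them had at least 1 read somewhere and none had over 17 reads in a library, the highest being *glr-3*.

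Nematode neurons signal with acetylcholine, GABA, glutamate and the monoamines serotonin, dopamine, tyramine and octopamine. Ligand-gated channels pass ions within milliseconds of binding a transmitter: nicotinic and most ionotropic glutamate receptors excite the cell, while many *lgc* channels are anion channels that inhibit it, some of them gated by amines or acetylcholine. G protein-coupled receptors act more slowly through the Go, Gq and Gs proteins. Serotonin accompanies feeding in this animal and drives pharyngeal pumping and egg laying, and octopamine accompanies the absence of food.

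Messenger RNA was sequenced from pools of about 1000 whole animals at 20 °C, so a receptor found in a few neurons is diluted by all other tissues, and fewer cells of a type cannot be told apart from less RNA per cell. There were 4 groups of 4 libraries, crossing genotype and feeding from adult day 1 to adult day 2. Wild-type animals were the N2 (Bristol) strain on empty vector (EV) RNAi bacteria, either fed ad libitum or fasted for 24 h. Animals labelled H3K27ac-deficient carried a *jmjd-3.1* mutation (*jmjd-3.1* encodes a histone H3 lysine 27 demethylase) and were on *cbp-1* RNAi (*cbp-1* encodes a histone acetyltransferase), again fed or fasted for 24 h. Both RNAi treatments ran from the L1 larva to day 2 of adulthood. The labels name 2 different *jmjd-3.1* alleles, gk384 and gk387, and mutation and RNAi always came together, so they cannot be told apart. Replicates are described as independent experiments, and all libraries carry the same batch number.

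Libraries held 16446081 to 27792762 estimated reads. Reads of *cbp-1* were 79.39 to 119.03 CPM (counts per library scaled to a common size) in fed wild type, 128 to 171 in fasted wild type, 178 to 248 in the fed and 259.9 to 322 in the fasted libraries labelled deficient, so the targeted gene was higher in those labelled deficient (log2 1.02 ± 0.14 when fed and 0.89 ± 0.14 when fasted, SE). *jmjd-3.1* was at 11.9 to 12.9, 16.4 to 22.7, 15.9 to 21.4 and 21.1 to 23.2 CPM in the same order. Neither gene had fewer reads in the libraries labelled deficient, although a count over a whole gene does not show the loss of part of it. The second genotype is called labelled-deficient throughout. Germ line markers fixed for this work were higher in the labelled-deficient libraries for 9 of 10 genes when fed and 10 of 10 when fasted, at 1143 to 1749, 1062 to 1277, 2018 to 3127 and 2361 to 3087 summed CPM per library in the 4 groups (fed and fasted wild type, then fed and fasted labelled-deficient). Pan-neuronal markers summed to 588 to 680.4, 584 to 610.2, 586 to 675 and 658 to 700.4 CPM, with no marker of the 16 at 0. The part of such shifts in tissue makeup in the receptor results was not tested.

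Receptor messages were scarce. Over the 92 tested genes the median of the mean CPM was 1.81, against 13.6 over all 15840 tested genes. In 67 of the 92 the mean was at least 1 CPM and in 17 at least 5 CPM. On a scale per transcript length (TPM, which divides by transcript length and then scales each library to a common total), the highest were *lgc-22* (mean of 8.33 over the 16 libraries), *lgc-34* (7.75), *lgc-32* (6.47), *ser-4* (5.61), *acr-16* (3.64), *lgc-40* (3.26), *lgc-44* (3.1) and *acr-17* (2.79). The order depended on the group. In fed wild type *lgc-22* had 14.1 ± 1.5 TPM (SD, n = 4), *lgc-32* 12.8 ± 3.28 and *lgc-34* 9.92 ± 0.727, while in the fasted labelled-deficient libraries *lgc-34* had 4.38 ± 0.662, *lgc-22* 3.87 ± 0.485 and *lgc-32* 2.52 ± 0.520. Of the glutamate receptor subunits, *glr-4* had 2.20 and *glr-6* 2.13 TPM over all libraries, and the AMPA-type *glr-1* had 0.209.

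**Figure D1:**
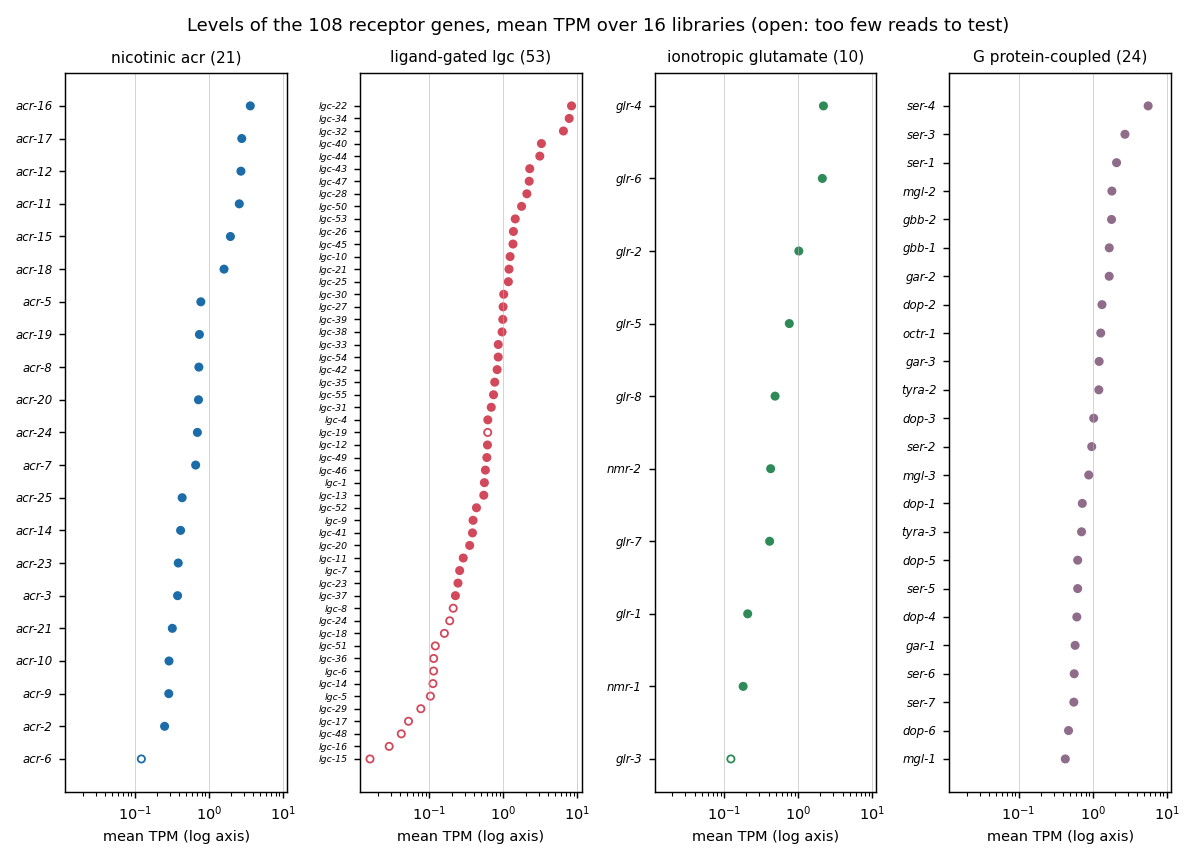
Mean TPM over 16 libraries (log axis) of each of the 108 receptor genes, in 4 family panels with genes ordered by level; filled points were tested and open points had too few reads. Most genes lie near or under 1 TPM, and *lgc-22* is the highest at 8.33.

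Summed over all 108 genes, receptor CPM were 308 to 370.2 in fed wild type, 265 to 292 in fasted wild type, 206 to 237 in fed labelled-deficient and 220.2 to 229 in fasted labelled-deficient libraries. On this scale, which divides by library size times a composition factor (TMM), the fed wild-type libraries lay above all others and the labelled-deficient libraries below both wild-type groups. With library size alone the sums were 262 to 329, 281 to 315, 198 to 259.7 and 225 to 253, so the wild-type groups overlapped and the labelled-deficient libraries still lay lowest. By mean CPM with TMM, 41 of the 92 tested genes were highest in fed wild type and 40 were lowest in the fed labelled-deficient group. By mean TPM, which has no such factor, 24 were highest and 37 lowest in fed wild type, and 35 were highest in the fasted labelled-deficient group. The *lgc* genes made up much of the sum, at 147 to 178, 119.8 to 128, 92.8 to 106 and 79.6 to 89 CPM with TMM in the same order. The *acr* genes overlapped among all groups, at 34.2 to 51.5, 38.7 to 44.8, 30.6 to 40.3 and 40.2 to 44.0. G protein-coupled receptors were at 100.4 to 115, 82.2 to 91.6, 63.9 to 75.3 and 72.7 to 77.2. With library size alone they were at 85.5 to 92.3, 87.3 to 98.8, 61.5 to 79.0 and 77.3 to 82.1. The *lgc* genes were then at 125 to 159, 127 to 136, 89.3 to 114 and 81.3 to 94.6. For both families the fed and fasted wild-type ranges then overlapped, and the labelled-deficient libraries still lay lowest.

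**Figure D2:**
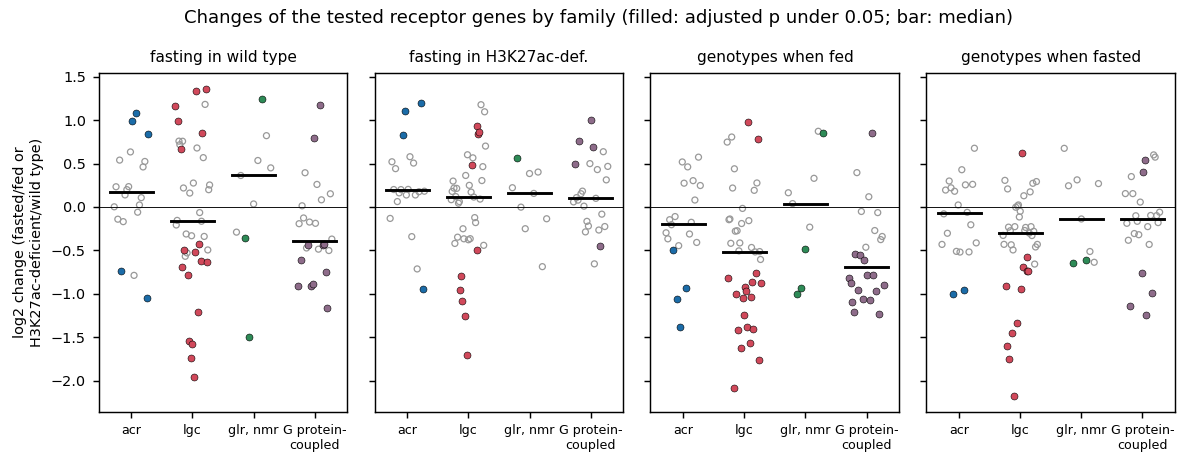
Log2 change of each tested receptor gene (points) in 4 comparisons, by family; filled points had an adjusted p under 0.05 and bars are family medians. Genes lower in fed labelled-deficient libraries outnumber those higher, 39 to 4, or 25 to 10 with library size alone. Over all tested genes 31.7% were lower and 24.6% higher, or 19.1% and 37.3% with library size alone.

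Fasting in wild type changed 37 of the 92 genes (40.2%), 12 upward and 25 downward, where 61% of all tested genes changed, 30.4% upward and 30.6% downward. A gene is called changed here when its adjusted p was under 0.05 in edgeR's quasi-likelihood test, with Benjamini-Hochberg adjustment over all 15840 genes. Leaving aside genes whose mean was under 0.5 CPM, the largest falls were in *lgc-39*, *lgc-34* and *lgc-32*, all ligand-gated channel genes, and the largest rises were in *lgc-53* (a dopamine-gated channel), *lgc-40* (a channel gated by serotonin, choline and acetylcholine) and *glr-8* (a glutamate receptor subunit of pharyngeal neurons). By family, 3 *acr* genes rose and 2 fell, 6 *lgc* rose and 12 fell, 1 ionotropic glutamate gene rose and 2 fell, and 2 G protein-coupled genes rose and 9 fell. With library size alone these splits turned to 9 and 0, 10 and 6, 5 and 1, and 4 and 2. With that scaling 47.1% of all tested genes rose and 15.9% fell. The median log2 change was -0.096 over the receptor genes and 0.012 over all genes. At least 2-fold changes numbered 14 (6 up, 8 down), and the libraries of the 2 feeding states did not overlap in 33 genes, where 26.8% of all genes were called at least 2-fold and 50.4% did not overlap.

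*lgc-39*, a channel gated by several amines and by acetylcholine, had 4.02, 5.10, 4.71 and 3.40 CPM in fed wild-type replicates 1 to 4 and 1.10, 1.41, 0.847 and 1.04 after fasting (chromosome V, 7175501 to 7178795, plus strand, WBcel235). Every fed library lay above every fasted one, a change of log2 -1.96 ± 0.23 (SE), adjusted p = 1.57e-07. For *lgc-34* the values were 21.4, 20.7, 21.1 and 17.3 fed and 6.45, 5.72, 5.71 and 6.18 fasted (chromosome II, 526574 to 530374, plus strand). All 4 fasted libraries were at 6.45 CPM or less (log2 -1.74 ± 0.13 (SE), adjusted p = 9.81e-11). *lgc-32* went from 27, 17.5, 19 and 13.8 to 8.13, 6.26, 6.73 and 5.52 CPM (chromosome X, 672107 to 676484, plus strand), again without overlap (log2 -1.54 ± 0.18 (SE), adjusted p = 2.26e-07). In *glr-5*, a kainate-type glutamate receptor subunit, fed libraries had 7.14, 4.84, 5.78 and 5.62 and fasted ones 2.78, 1.72, 2.76 and 1.08 CPM. The highest fasted library stayed under the lowest fed one (log2 -1.49 ± 0.23 (SE), adjusted p = 1.04e-05). Other falls were those of *lgc-37* (log2 -1.57 ± 0.44, in a gene with a mean of 0.426 CPM), *lgc-42* (-1.21 ± 0.31), *ser-6* (-1.17 ± 0.35), *acr-8* (-1.05 ± 0.31), *gbb-1* (-0.91 ± 0.17), *dop-1* (-0.91 ± 0.26) and *gbb-2* (-0.88 ± 0.16; all SE). *gbb-1* and *gbb-2* encode the 2 subunits of the GABA-B receptor.

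Several rises were equally free of overlap. *ser-1*, a Gq-coupled serotonin receptor of vulval muscle and neurons, had 3.26, 4.02, 3.77 and 2.75 CPM fed and 7.82, 8.21, 6.47 and 8.54 CPM fasted (chromosome X, 16579745 to 16587624, plus strand). The lowest fasted library was above the highest fed one (log2 1.17 ± 0.16 (SE), adjusted p = 2.22e-06). *lgc-40* had 3.45, 3.70, 3.23 and 2.52 fed and 8.86, 7.40, 8.92 and 7.45 fasted, with no overlap (log2 1.34 ± 0.17 (SE), adjusted p = 6.6e-07; chromosome X, 2360097 to 2364821, plus strand). *lgc-53* had 1.84, 1.47, 1.88 and 0.996 fed and 4.98, 3.90, 4.06 and 3.07 fasted (log2 1.36 ± 0.22 (SE), adjusted p = 1.56e-05), and each fasted library exceeded each fed one. The rest of the largest rises were in *glr-8* (log2 1.24 ± 0.36), *lgc-1* (1.16 ± 0.40), *acr-23* (1.08 ± 0.30, a betaine-gated channel), *acr-20* (1.0 ± 0.27) and *lgc-12* (0.98 ± 0.30). *mgl-1*, a metabotropic glutamate receptor, rose by 0.80 ± 0.25.

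The balance of higher to lower calls in wild-type fasting rested on how libraries were scaled. TMM factors were 0.789 to 0.890 in fed wild type and 0.962 to 1.11 in the other 12 libraries. With library size alone, the median of all genes moved by 0.34, and 28 receptor genes were higher and 9 lower, where all tested genes turned to 47.1% higher and 15.9% lower, with 21 of these 37 being among the 37 called with TMM. Against the median of all genes the receptor median was -0.11 with TMM and -0.12 with library size alone. Of the 37 calls 16 were lost with library size alone, among them *ser-6* (-0.83, adjusted p = 0.0536), *lgc-26* (-0.16, adjusted p = 0.5), *acr-8* (-0.71, adjusted p = 0.0611), *lgc-54* (-0.30, adjusted p = 0.344), *gar-2* (-0.10, adjusted p = 0.562), *ser-3* (-0.10, adjusted p = 0.618), *ser-4* (-0.072, adjusted p = 0.619), *ser-5* (-0.40, adjusted p = 0.179), *dop-1* (-0.57, adjusted p = 0.0686) and *dop-3* (-0.27, adjusted p = 0.322), while *lgc-39*, *lgc-34*, *lgc-32*, *glr-5*, *lgc-42*, *gbb-1* and *gbb-2* stayed lower. Leaving out 1 library ended 11 of the 37 calls at least once, among them *lgc-1* without fed wild-type replicate 4 or fasted wild-type replicate 3 (adjusted p = 0.0558 to 0.0716), *lgc-26* without fed wild-type replicate 1 or 3 or fasted wild-type replicate 1 (adjusted p = 0.0617 to 0.0779), *lgc-54* without fed wild-type replicate 1 or 2 or fasted wild-type replicate 2 or 4 (adjusted p = 0.0569 to 0.188), *ser-3* without fed wild-type replicate 1 or 3 (adjusted p = 0.0524 to 0.0745), *ser-5* without fed wild-type replicate 2 or fasted wild-type replicate 2 (adjusted p = 0.0518 to 0.0736), *dop-3* without fed wild-type replicate 1 or fasted wild-type replicate 4 (adjusted p = 0.0583 to 0.0652).

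**Figure D3:**
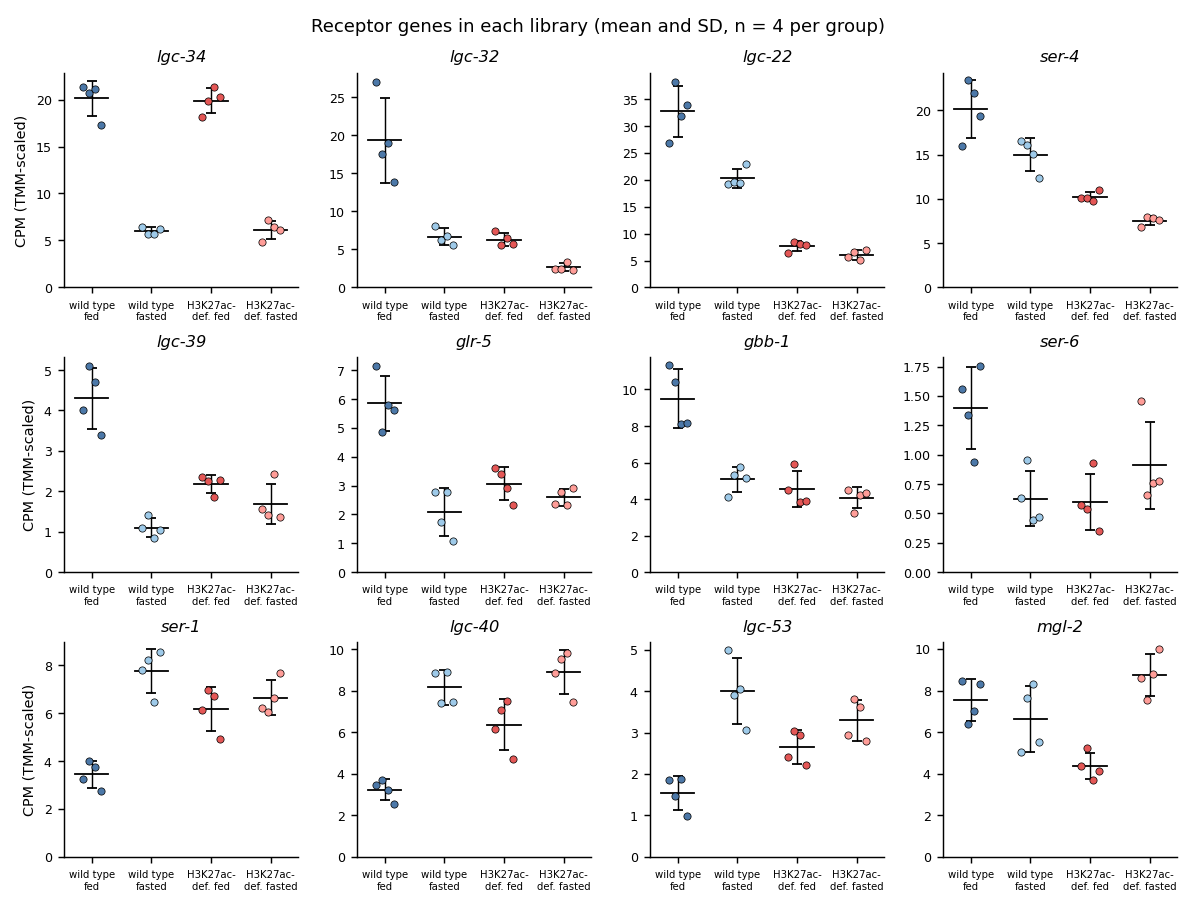
CPM of 12 receptor genes in each library, by group (points: libraries; bars and whiskers: mean and SD, n = 4). *lgc-34* falls on fasting in both genotypes to 6.01 and 6.14 CPM, *lgc-22* and *ser-4* are low in labelled-deficient libraries in both feeding states, and *mgl-2* rises on fasting in the labelled-deficient libraries.

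Fasting in the labelled-deficient animals changed 20 genes (21.7%), 12 upward and 8 downward, where 35.3% of all tested genes changed, 19.6% upward and 15.7% downward. With DESeq2 size factors the receptor counts were 11 and 9, while all tested genes turned to 14% upward and 18.7% downward. *mgl-2*, a metabotropic glutamate receptor linked in this animal to the starvation response, rose there and *lgc-34* fell. By family 3 *acr* rose and 1 fell, 4 *lgc* rose and 6 fell, 1 ionotropic glutamate gene (*glr-2*, AMPA-type, log2 0.57 ± 0.19) rose and none fell with TMM, its call being lost with DESeq2 size factors (0.49, adjusted p = 0.0505), and 4 G protein-coupled genes rose and 1 fell. The median was 0.15, and 0.11 over all genes. At least 2-fold changes numbered 5, where 10.8% of all genes were at least 2-fold. In 19 genes the feeding states did not overlap, and over all genes this was 35.6%.

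*mgl-2* had 4.39, 5.23, 3.70 and 4.14 CPM in fed and 8.63, 7.57, 8.79 and 10.0 in fasted labelled-deficient replicates 1 to 4, and each fasted library exceeded each fed one (log2 1.0 ± 0.17 (SE), adjusted p = 7.99e-05). Exons of *mgl-2* share 554 bases with *maf-1* on the same strand, and reads there could belong to either. *lgc-34* fell from 18.2, 19.8, 21.3 and 20.3 to 4.87, 7.13, 6.47 and 6.08 CPM (log2 -1.70 ± 0.13 (SE), adjusted p = 3.06e-10). *lgc-32* fell from 7.36, 5.59, 6.47 and 5.71 to 2.45, 2.40, 3.40 and 2.26 (log2 -1.26 ± 0.20 (SE), adjusted p = 4.01e-05). Both sets were separate, and the wild-type falls of the same 2 genes were -1.74 and -1.54. Also lower were *lgc-28* (log2 -1.08 ± 0.24), *lgc-26* (-0.95 ± 0.22), *acr-8* (-0.94 ± 0.28) and *lgc-27* (-0.79 ± 0.27). Higher were *acr-7* (1.19 ± 0.34), *acr-19* (1.10 ± 0.34), *lgc-46* (0.94 ± 0.26, an acetylcholine-gated anion channel), *lgc-49* (0.86 ± 0.26), *lgc-47* (0.83 ± 0.17), *acr-18* (0.83 ± 0.19), *dop-5* (0.76 ± 0.22), *mgl-3* (0.69 ± 0.19) and *dop-2* (0.49 ± 0.15, a D2-like dopamine receptor).

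With TMM, fasting in both genotypes raised *lgc-40* and *lgc-47* and lowered *acr-8*, *lgc-26*, *lgc-32*, *lgc-34*, *lgc-45* and *ser-4*, where 13.4% of all tested genes rose and 11.9% fell in both. With library size alone the wild-type falls of *acr-8*, *lgc-26*, *lgc-45* (-0.28, adjusted p = 0.0999) and *ser-4* were lost. *acr-7*, *acr-18*, *glr-2*, *lgc-49* and *mgl-3* then rose in both genotypes as well. The labelled-deficient call of *lgc-45* ended without fed labelled-deficient replicate 4 or fasted labelled-deficient replicate 3 (adjusted p = 0.0538 to 0.0732). No receptor gene was called in opposite directions with TMM, and 1.66% of all tested genes were. *lgc-47* had 2.74, 4.65, 2.69 and 2.93 CPM in fed and 6.87, 5.94, 5.35 and 5.28 in fasted wild type, then 3.62, 3.62, 4.27 and 3.28 fed and 7.40, 6.91, 5.61 and 6.44 fasted labelled-deficient. Fasted libraries were above fed ones in each genotype (log2 0.85 ± 0.18 and 0.83 ± 0.17). Without fasted labelled-deficient replicate 2 the count of changed receptor genes in that genotype was 14, where 28.8% of all tested genes were called. Leaving out 1 library ended 8 of the 20 calls at least once, among them *lgc-40* without fed labelled-deficient replicate 4 or fasted labelled-deficient replicate 2 or 3 (adjusted p = 0.0546 to 0.069), *acr-7* without fasted labelled-deficient replicate 2 (adjusted p = 0.0549), *acr-19* without fed labelled-deficient replicate 1 or fasted labelled-deficient replicate 2 (adjusted p = 0.0553 to 0.122), *acr-8* without fed labelled-deficient replicate 1 (adjusted p = 0.0628), *lgc-27* without fed labelled-deficient replicate 3 or fasted labelled-deficient replicate 1 or 2 (adjusted p = 0.0763 to 0.117), *dop-2* without fed labelled-deficient replicate 3 or fasted labelled-deficient replicate 2 (adjusted p = 0.0517 to 0.058).

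Between the fed groups, receptor genes that were called were mostly lower in the libraries labelled deficient. There 43 of 92 genes (46.7%) were called, 4 higher and 39 lower, where 56.2% of all tested genes were called, 24.6% higher and 31.7% lower. With library size alone all tested genes turned to 37.3% higher and 19.1% lower, and the receptor counts were 10 higher and 25 lower. Of the 24 G protein-coupled receptors 15 were lower and 1, *ser-1*, was higher. The *lgc* genes split 2 higher to 17 lower, *acr* 0 to 4 and ionotropic glutamate genes 1 to 3. The splits with library size alone were 2 to 10 for G protein-coupled, 4 to 11 for *lgc*, 2 to 2 for *acr* and 2 to 2 for ionotropic glutamate genes. The median log2 difference was -0.43 over the receptor genes and -0.076 over all genes. All 18 differences of at least 2-fold were lower, where 20.9% of all genes were called at least 2-fold in either direction. The libraries of the 2 groups did not overlap in 36 genes, with 41.9% over all genes. Pan-neuronal markers were lower in 8 and higher in 2 of 16 genes, with a median of -0.35 (5 higher and 2 lower with library size alone). Intestinal markers were lower in 9 of 9. The part of either in the receptor result was not tested.

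*lgc-22* differed most. It had 26.9, 38.2, 31.8 and 34 CPM in fed wild type and 6.38, 8.41, 8.06 and 7.88 in fed labelled-deficient libraries (chromosome IV, 4301306 to 4304448, plus strand). Every labelled-deficient library lay below every wild-type one (log2 -2.09 ± 0.14 (SE), adjusted p = 2.5e-11). *ser-4*, a Gi/o-coupled serotonin receptor, had 15.9, 23.4, 21.9 and 19.4 and 10.2, 10.1, 9.78 and 11 CPM, without overlap (log2 -0.97 ± 0.13 (SE), adjusted p = 1.58e-06; chromosome III, 1723198 to 1733101, minus strand). *octr-1*, an octopamine receptor, had 3.17, 4.97, 2.08 and 3.75 and 1.46, 2.18, 1.06 and 1.92, and its groups overlapped (log2 -1.07 ± 0.31 (SE), adjusted p = 0.00556). Further large differences were those of *lgc-54* (log2 -1.76 ± 0.28), *lgc-32* (-1.62 ± 0.18), *lgc-42* (-1.56 ± 0.32), *lgc-28* (-1.41 ± 0.20), *lgc-46* (-1.40 ± 0.26), *acr-19* (-1.38 ± 0.34) and *lgc-4* (-1.38 ± 0.23). Among dopamine receptors 5 of 6 were lower with TMM: the D1-like *dop-1* (-0.81 ± 0.26) and *dop-4* (-1.2 ± 0.28), the D2-like *dop-2* (-0.87 ± 0.15) and *dop-3* (-1.10 ± 0.23), and *dop-5* (-0.54 ± 0.23). *dop-6* was at 0.40 ± 0.28, not called. The *dop-5* call was lost in 7 of 8 alternatives, including DESeq2 size factors (-0.50, adjusted p = 0.0643), and with library size alone 3 dopamine receptors were lower and *dop-6* was higher (0.70, adjusted p = 0.042). The 4 genes that were higher were *lgc-40* (0.98 ± 0.17), *nmr-2* (0.85 ± 0.31, an NMDA-type subunit), *ser-1* (0.85 ± 0.16) and *lgc-53* (0.78 ± 0.22).

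The median of all genes moved by 0.29 with library size alone. Relative to all genes the receptor median was -0.36 under either scaling. Of the 43 calls 14 were lost with library size alone, all of them lower: *acr-15* (-0.21, adjusted p = 0.374), *acr-21* (-0.64, adjusted p = 0.131), *dop-1* (-0.51, adjusted p = 0.101), *dop-5* (-0.25, adjusted p = 0.378), *gar-2* (-0.26, adjusted p = 0.128), *gbb-2* (-0.30, adjusted p = 0.121), *glr-6* (-0.19, adjusted p = 0.402), *lgc-9* (-0.56, adjusted p = 0.2), *lgc-10* (-0.52, adjusted p = 0.112), *lgc-35* (-0.76, adjusted p = 0.0727), *lgc-37* (-0.95, adjusted p = 0.0579), *lgc-38* (-0.62, adjusted p = 0.0798), *lgc-50* (-0.46, adjusted p = 0.0647) and *ser-2* (-0.48, adjusted p = 0.163). Leaving out 1 library ended 9 of the 43 calls at least once and up to 6 at a time, the most being without fed labelled-deficient replicate 4. These 9 were *nmr-2* without fed wild-type replicate 2 or 4 or fed labelled-deficient replicate 2 (adjusted p = 0.0607 to 0.068), *acr-21* without fed wild-type replicate 3 or fed labelled-deficient replicate 4 (adjusted p = 0.0756 to 0.0758), *acr-15* without fed wild-type replicate 1 or 3 or fed labelled-deficient replicate 3 or 4 (adjusted p = 0.0517 to 0.104), *dop-5* without fed wild-type replicate 1 or 3 or fed labelled-deficient replicate 2 or 3 or 4 (adjusted p = 0.0675 to 0.187), *glr-6* without fed wild-type replicate 1 or 2 or fed labelled-deficient replicate 3 or 4 (adjusted p = 0.0657 to 0.0978), *lgc-9* without fed wild-type replicate 2 or 3 or fed labelled-deficient replicate 2 or 4 (adjusted p = 0.0995 to 0.287), *lgc-10* without fed wild-type replicate 1 (adjusted p = 0.0976), *lgc-37* without fed labelled-deficient replicate 3 (adjusted p = 0.055) and *ser-2* without fed wild-type replicate 2 or fed labelled-deficient replicate 4 (adjusted p = 0.0681 to 0.0712). The calls, SE and adjusted p above come from fits that do not pair libraries by replicate number. With the replicate number as a block, which pairs the fed libraries, *dop-5* (-0.54, adjusted p = 0.055) and *lgc-9* (-0.86, adjusted p = 0.0519) were no longer called. That fit called 43 receptor genes, 4 higher and 39 lower, where 27.7% of all tested genes were higher and 35.1% lower.

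Between the fasted groups 22 genes (23.9%) were called, 3 higher and 19 lower, where 57.5% of all tested genes were called, 28.2% higher and 29.3% lower. The family split was *acr* 0 to 2, *lgc* 1 to 11, ionotropic glutamate 0 to 2 and G protein-coupled 2 to 4. The median was -0.23, and -0.044 over all genes. All 8 differences of at least 2-fold were lower (20.3% of all genes were at least 2-fold in either direction), and groups did not overlap in 19 genes (57.5% of all genes). *lgc-28* had 4.88, 3.58, 5.35 and 3.73 CPM in fasted wild type and 0.997, 1.03, 0.916 and 0.894 in fasted labelled-deficient libraries, the highest of the latter being under every wild-type library (log2 -2.18 ± 0.23 (SE), adjusted p = 4e-08). *lgc-22* had 19.2, 19.5, 19.4 and 23.0 and 5.6, 6.64, 5.01 and 6.97 (log2 -1.75 ± 0.14 (SE), adjusted p = 6.71e-10). *ser-4* had 16.6, 16.1, 15 and 12.4 and 6.79, 8.0, 7.87 and 7.57, with every fasted labelled-deficient library under every fasted wild-type one (log2 -0.99 ± 0.13 (SE), adjusted p = 1.53e-06). Lower as well were *lgc-13* (log2 -1.6 ± 0.40), *lgc-26* (-1.45 ± 0.21), *lgc-32* (-1.34 ± 0.20), *octr-1* (-1.24 ± 0.34), *dop-4* (-1.14 ± 0.28) and *acr-17* (-1.0 ± 0.20), and *mgl-1* by -0.76 ± 0.24. Higher were *lgc-39* (0.62 ± 0.24), *mgl-3* (0.54 ± 0.19) and *mgl-2* (0.40 ± 0.17). These 3 calls were among 6 of the 22 that ended without single libraries: *lgc-39* without fasted wild-type replicate 1 or 3 or 4 or fasted labelled-deficient replicate 3 (adjusted p = 0.0531 to 0.158), *mgl-3* without fasted wild-type replicate 3 or 4 or fasted labelled-deficient replicate 1 (adjusted p = 0.0505 to 0.0641) and *mgl-2* without fasted wild-type replicate 1 or 4 or fasted labelled-deficient replicate 1 or 3 or 4 (adjusted p = 0.0712 to 0.213).

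Both feeding states showed 13 genes lower in labelled-deficient libraries: *acr-17*, *dop-4*, *glr-4*, *lgc-4*, *lgc-22*, *lgc-26*, *lgc-28*, *lgc-32*, *lgc-38*, *lgc-43*, *lgc-45*, *octr-1* and *ser-4*, where 19.6% of all tested genes were lower in both. No receptor gene was higher in both, against 16.7% of all tested genes. With TMM, *lgc-39* and *mgl-2* were lower when fed and higher when fasted, and 2.45% of all tested genes were called in opposite directions. The higher call of *mgl-2* was lost with DESeq2 size factors (0.37, adjusted p = 0.0604), library size alone (0.40, adjusted p = 0.0569), DESeq2 and no filter, and that of *lgc-39* with limma voom (adjusted p = 0.0518). Among the 13, the fed call of *lgc-38* was lost with library size alone (-0.62, adjusted p = 0.0798), and the fasted call was lost for *lgc-4* without fasted wild-type replicate 2 or fasted labelled-deficient replicate 4 (adjusted p = 0.0644 to 0.0796). *acr-17* had 2.84, 3.70, 3.43 and 2.52 and 3.93, 3.13, 3.39 and 3.25 CPM in fed and fasted wild type and 1.42, 1.22, 1.81 and 1.51 and 1.92, 1.25, 1.89 and 1.73 in fed and fasted labelled-deficient libraries. Each labelled-deficient library was below each wild-type library of its feeding state (log2 -1.06 ± 0.20 fed and -1.0 ± 0.20 fasted). *glr-4*, a glutamate receptor subunit, differed by -1.0 ± 0.15 fed and -0.65 ± 0.15 fasted.

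**Figure D4:**
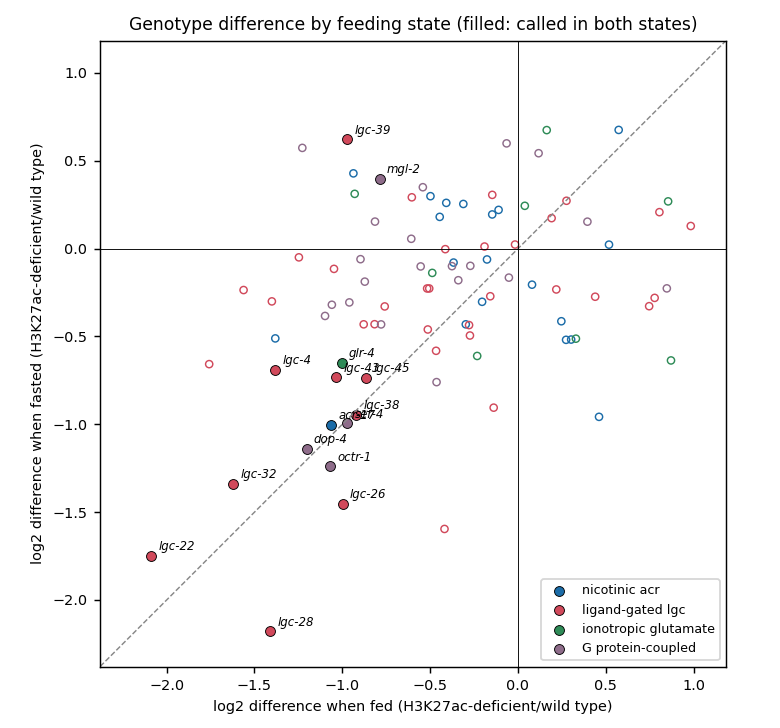
Log2 difference between labelled-deficient and wild type when fasted (vertical axis) against that when fed (horizontal axis), 1 point per tested receptor gene; filled points were called in both feeding states and the dashed line marks equal differences. Most called genes lie in the lower left, with *lgc-22* at -2.09 and -1.75.

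The interaction, taken as the log2 fasting change of the labelled-deficient groups less that of the wild-type groups, was called for 17 of 92 genes (18.5%), 13 positive and 4 negative, where 25.9% of all tested genes were called, 14.5% positive and 11.4% negative. The 4 negative genes, *acr-23*, *ser-1*, *lgc-53* and *lgc-40*, all rose on fasting in wild type. Of the 13 positive genes 8 fell in wild type (*acr-15*, *gbb-1*, *gbb-2*, *glr-5*, *lgc-39*, *lgc-42*, *lgc-54* and *ser-6*) and 4 of the others rose in labelled-deficient animals (*dop-2*, *dop-5*, *lgc-46* and *mgl-2*). The median was 0.24, and 0.068 over all genes, and 11.6% of all genes had an interaction of at least 2-fold, against 11 of 92 receptor genes.

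*ser-6*, an octopamine receptor, had 1.56, 1.34, 0.942 and 1.76 CPM in fed and 0.629, 0.953, 0.446 and 0.472 in fasted wild type, and 0.569, 0.537, 0.925 and 0.353 in fed and 1.46, 0.653, 0.755 and 0.775 in fasted labelled-deficient libraries. The values fell in wild type and, in the other genotype, were highest in 1 fasted library, so the 2 fasting changes were -1.17 ± 0.35 and 0.64 ± 0.35 on the log2 scale and their difference was 1.80 ± 0.50 (adjusted p = 0.011). For *ser-1*, the labelled-deficient values were 6.14, 6.95, 6.69 and 4.90 fed and 6.21, 6.04, 6.63 and 7.69 fasted. These overlapped each other, and the interaction was -1.07 ± 0.22 (adjusted p = 0.00114). *lgc-39* had 2.36, 2.26, 1.85 and 2.27 and 1.57, 1.42, 2.43 and 1.37 CPM in labelled-deficient libraries, and its interaction was 1.6 ± 0.32 (adjusted p = 0.000767). *mgl-2* in wild type had 8.46, 6.37, 6.99 and 8.32 and 5.04, 7.62, 8.29 and 5.52 CPM, which overlapped, and its interaction was 1.18 ± 0.24 (adjusted p = 0.000908). *acr-23* went from 0.567, 0.892, 0.336 and 0.644 to 1.21, 1.41, 1.34 and 1.23 in wild type and from 0.650, 1.07, 1.01 and 0.606 to 0.652, 0.708, 0.701 and 0.596 in labelled-deficient libraries, an interaction of -1.42 ± 0.42 (adjusted p = 0.0168).

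Fewer interactions were called under other scalings and without most single libraries. There were 10 without fasted wild-type replicate 1 or fasted labelled-deficient replicate 4, and 11 without fasted wild-type replicate 3. Of all tested genes 20.5%, 20.7% and 20.9% were called in these fits, against 25.9% in the main fit. Without fed wild-type replicate 4 there were still 17 (23.5% of all tested genes), and the replicate block gave 21 (40.5%). DESeq2 size factors gave 8 positive and 6 negative calls, library size alone gave 4 positive and 7 negative (all tested genes 10.9% positive and 13.7% negative, then 6.24% and 22.4%), and the median of all genes then moved by -0.072 and -0.29. Relative to all genes the receptor median was 0.17 under each of the 3 scalings. The 9 positive calls lost with library size alone were *acr-15* (0.52, adjusted p = 0.182), *acr-21* (1.08, adjusted p = 0.117), *dop-2* (0.40, adjusted p = 0.17), *dop-5* (0.61, adjusted p = 0.172), *gbb-1* (0.45, adjusted p = 0.198), *gbb-2* (0.36, adjusted p = 0.269), *lgc-42* (1.05, adjusted p = 0.0984), *lgc-46* (0.82, adjusted p = 0.0875) and *lgc-54* (0.81, adjusted p = 0.152), while *ser-6*, *lgc-39*, *glr-5* and *mgl-2* kept theirs. Single left-out libraries ended the same 9 calls: *lgc-42* without any 1 of 12 libraries (adjusted p = 0.0546 to 0.0982), *lgc-46* without fasted wild-type replicate 1 or 3 or fed labelled-deficient replicate 1 or 3 (adjusted p = 0.0509 to 0.0564), *lgc-54* without any 1 of 11 libraries (adjusted p = 0.0516 to 0.112), *acr-21* without any 1 of 13 libraries (adjusted p = 0.0535 to 0.135), *dop-2* without fasted wild-type replicate 4 (adjusted p = 0.0544), *gbb-1* without any 1 of 7 libraries (adjusted p = 0.051 to 0.071), *gbb-2* without any 1 of 7 libraries (adjusted p = 0.0549 to 0.0844), *acr-15* without any 1 of 6 libraries (adjusted p = 0.0528 to 0.0855) and *dop-5* without any 1 of 11 libraries (adjusted p = 0.0517 to 0.09).

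**Figure D5:**
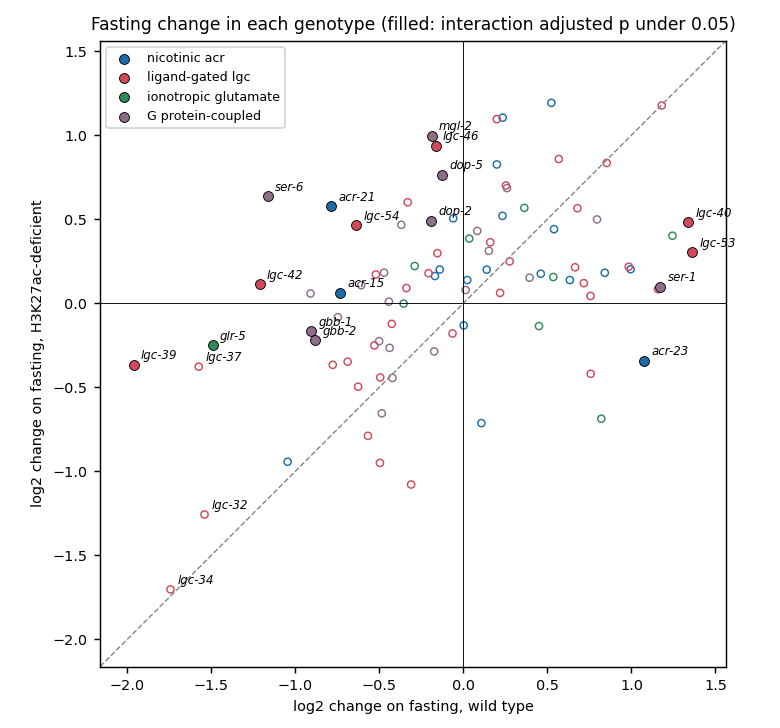
Log2 change on fasting in labelled-deficient (vertical axis) against wild type (horizontal axis) for the 92 tested receptor genes; filled points had an interaction with adjusted p under 0.05 and the dashed line marks equal change. *lgc-34* lies near the line at -1.74 and -1.70, and *ser-1* lies far below it.

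Receptors linked to feeding, pumping or egg laying were followed whatever their values. The order of values for each is wild-type fasting, labelled-deficient fasting, fed genotypes and fasted genotypes, in log2. Muscarinic receptors were *gar-2* (-0.44, 0.0096, -0.55, -0.10) and *gar-3* (-0.17, -0.29, -0.052, -0.16), of which only *gar-2* was called (wild-type fasting and fed genotypes). The serotonin receptor *ser-5* was at -0.75 (called), -0.083, -0.065 and 0.60, and *ser-7*, which drives pumping, was called in none, at -0.50, -0.23, -0.38, -0.10. The octopamine receptor *ser-3* was called in wild-type fasting alone among the 5 contrasts (-0.44 ± 0.15). Of the tyramine receptors, *tyra-2* was called nowhere, at 0.15, 0.31, -0.34, -0.18, and *tyra-3* only between fed genotypes (-0.90 ± 0.24). The tyramine-gated channel *lgc-55* was called nowhere, at -0.49, -0.44, -0.51, -0.46. *lgc-50*, a serotonin-gated channel, was lower between fed genotypes (-0.76 ± 0.19). *acr-16*, a nicotinic subunit of body wall muscle, had an interval of -0.59 to 0.26 in wild-type fasting and -0.53 to 0.31 between fed genotypes. *glr-1* had -1.08 to 0.50 and -0.58 to 0.91, and the NMDA-type *nmr-1* had -0.045 to 1.69 and 0.016 to 1.73 (95% intervals of the log2 difference). Each includes differences of either sign except the last, and none of these 6 differences passed the adjusted threshold with TMM. Under library size alone *nmr-1* was called higher in both comparisons (1.16, adjusted p = 0.0209 and 1.16, adjusted p = 0.0215). In all 26 tested genes were called in no contrast, among them *acr-2*, *acr-3*, *acr-12*, *acr-16*, *gar-3*, *glr-1*, *nmr-1* and *dop-6*, and 66 (71.7%) in at least 1, where 88.3% of all tested genes were called in at least 1.

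Related genes outside the name rule were listed by role. Of 23 tested receptor genes with other names, 2 rose and 8 fell in wild-type fasting, 0 and 5 in labelled-deficient fasting, 0 and 9 between fed genotypes and 5 and 7 between fasted genotypes. Over all tested genes the shares were 30.4% and 30.6%, 19.6% and 15.7%, 24.6% and 31.7%, and 28.2% and 29.3% in the same order. These shares also stand beside the lists that follow. *glc-1*, a glutamate-gated chloride channel subunit, had 41.4 ± 12.3 and 52.4 ± 7.06 CPM (SD, n = 4) in fed and fasted wild type and 14.9 ± 0.983 and 19.5 ± 0.609 in labelled-deficient libraries, a genotype difference of -1.47 and -1.43. *avr-15*, of the same channel type, fell by 1.17 in wild-type fasting and was lower between fed genotypes (-1.68). *unc-49*, the GABA-A-type receptor of muscle, fell by 1.14 in wild type and by 0.46 in labelled-deficient fasting. *unc-63*, a levamisole receptor subunit, fell by 1.38 in wild-type fasting.

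Genes of receptor assembly and clustering (18 tested) had 4 rises and 7 falls, 1 and 3, 3 and 5, and 2 and 2 in the same 4 comparisons. *madd-4* and *lev-10*, which cluster receptors at the neuromuscular junction, changed by -2.08 and -1.51 in wild-type fasting, and the glutamate receptor auxiliary genes *sol-2* and *stg-2* by 1.39 and 1.63. G protein and second messenger genes (21 tested) had 1 rise and 11 falls, 3 and 0, 2 and 11, and 5 and 6. *crh-1* (CREB) fell by 1.04 in wild-type fasting and rose by 0.40 in labelled-deficient fasting with TMM, the second call being lost with DESeq2 size factors (0.32, adjusted p = 0.0697), an interaction of 1.44 ± 0.19. Genes of transmitter synthesis, transport and breakdown (20 tested) had 1 rise and 9 falls, 1 and 4, 1 and 11, and 3 and 7. *unc-25*, which makes GABA, fell by 2.84, *unc-17*, the vesicular acetylcholine transporter, by 2.33 and *tbh-1*, which makes octopamine, by 2.00 in wild-type fasting. *tbh-1* had 902 ± 58.8, 225 ± 10.7, 294 ± 14.5 and 106 ± 6.71 CPM in the 4 groups. In wild-type fasting with library size alone, the 4 lists in the order given split into 5 rises and 6 falls, 5 and 4, 4 and 3, and 5 and 8, and between fed genotypes into 0 higher and 4 lower, 6 and 4, 4 and 8, and 1 and 9. With that scaling all tested genes were 47.1% higher and 15.9% lower in wild-type fasting, and 37.3% and 19.1% between fed genotypes. In labelled-deficient fasting with DESeq2 size factors the lists split into 0 and 5, 1 and 3, 0 and 3, and 1 and 5, so that the G protein list turned from rises to falls. All tested genes were then at 14% upward and 18.7% downward. *cat-4*, needed to make the cofactor of serotonin and dopamine synthesis, had 111 ± 25.9, 97.0 ± 19.5, 30.1 ± 6.83 and 21.0 ± 2.48.

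Among the 92 tested receptor genes 33 (35.9%) lie on the X chromosome, against 14.5% of all tested genes. In wild-type fasting, with TMM, 8 of these rose and 6 fell, while 4 of the 59 elsewhere rose and 19 fell. Over all tested genes 37% of X genes rose and 26.0% fell, and elsewhere 29.2% and 31.4%. Between fed genotypes 11 X receptors were lower and 3 higher, against 28 and 1 of 59 elsewhere, where all tested genes were lower in 44.6% of X genes and 29.5% elsewhere and higher in 12.4% and 26.6%. Wild-type fasting with library size alone gave 13 rises and 2 falls on X and 15 and 7 elsewhere, and the fed genotypes 6 higher and 8 lower on X and 4 and 17 elsewhere. With that scaling 47.1% of all tested genes rose and 15.9% fell in wild-type fasting. Between fed genotypes 37.3% were higher and 19.1% lower. These shares are over all chromosomes, and shares for X genes with that scaling are not given here. Neighbouring receptor genes on 1 strand included *lgc-1* and *lgc-29* (gap of 162 bases), *acr-2* and *acr-3* (229 bases), *acr-15* and *acr-16* (5832 bases) and the *lgc-13* to *lgc-18* cluster on X. *acr-15* fell in wild-type fasting with TMM (-0.73 ± 0.19), and *acr-16* was not called (-0.17). The *acr-15* call was lost with library size alone (-0.40, adjusted p = 0.0864). Exons of 47 tested receptor genes overlap those of another gene in the annotation, and the strand used in quantification is not given in the sources used here.

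Within genes, transcripts were estimated separately for 206 transcripts, with over 1 transcript in 50 receptor genes. In *glr-4* the shares differed between feeding states. Its transcript C06A8.9a.1 made up 34.8% ± 6.85 (SD, n = 4) of the gene's TPM in fed wild type and 74.9% ± 13.8 after fasting, 38.4% ± 16.2 and 65.3% ± 14.2 in fed and fasted labelled-deficient libraries. The wild-type ranges were 25.9 to 42.4% and 54.5 to 84.3% and did not overlap, while in labelled-deficient libraries they were 23.7 to 60.4% and 47.4 to 82.0% and did. It was chosen after its values were seen, and shares were not tested.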

How the data were processed

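RNA-seq libraries from whole animals in 4 groups of 4 were analysed. Per the submitters' processing notes, the authors used FastQC 0.11.8, MultiQC 1.19, Salmon 1.9.0, R 4.3.2 and DESeq2 with the builds WBcel235 and ce11, with no roles given. The deposited tables hold estimated counts per gene, and estimated counts and TPM per transcript in Salmon's format per the file headers. TPM was summed here per gene. Strand settings are not given in the sources used here. Coordinates and biotypes come from Ensembl release 115, also WBcel235. Estimated counts can split reads between overlapping or near-identical genes.

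The estimated counts were rounded to whole numbers and analysed over the whole table with edgeR 4.0.16 (R 4.3.3): genes kept by filterByExpr, TMM scaling, a quasi-likelihood fit with robust dispersion over all 16 libraries, and 5 contrasts, the last being the interaction. Benjamini-Hochberg adjustment ran over all 15840 tested genes, with a threshold of 0.05, and only receptor rows are given. SE is the log2 change divided by the square root of the test statistic. CPM are TMM-scaled unless stated. Scripts were tested on simulated data.

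The members and lists were chosen with earlier results of these data known. The named genes are the 6 largest rises and the 6 largest falls per contrast among called genes with a mean of at least 0.5 CPM, a list of 25 receptors linked to feeding or egg laying, and the 8 highest by TPM. Other receptor genes named with a value, and all genes named from the pathway lists, were chosen after their values were seen. Lists are described by counts and medians, with no set test. The pathway and tissue marker lists name *unc-74* and *opt-2*, which had no row in the table and were not used.

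Alternatives were DESeq2 1.42.0, limma voom 3.58.1, 2 other scalings, 2 other filters, fits of the compared groups alone, a replicate block and leaving out each library. Same-numbered fed libraries of the 2 genotypes deviated together (correlations of 0.34, 0.181, 0.114 and 0.424), so the numbers were taken as pairing that comparison. Replicate 4 deviated together in the other group pairs too. Its correlations were 0.342 and 0.227 between feeding states in wild type and labelled-deficient, and 0.159 between the fasted groups. They were 0.214 between fed wild type and fasted labelled-deficient, and 0.32 between fasted wild type and fed labelled-deficient. A shift shared by replicate 4 was not removed from the main fit. No replicates matched within sampling noise (chi-square divided by degrees of freedom from 5.75 to 85.1). No column of another sample was used.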

Additional observations from a re-analysis of the deposited data

Results flagged for a closer look

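Single libraries stood apart from the other 3 of their group in 14 of 224 groups of 4 values examined, where the gap to the nearest library, as a ratio to the group's range, passed Dixon's 95% critical value for 4 samples. Chance alone flags about 1 in 20 such groups. Among the fasted labelled-deficient libraries, *lgc-32* was high in replicate 3 (3.40 CPM against 2.26 to 2.45 in the others, gap ratio 0.833). *ser-6* was high in replicate 1 (1.46 against 0.653 to 0.775, ratio 0.849). *acr-7* was high in replicate 2 (2.45 against 1.31 to 1.35, ratio 0.968), and its call in labelled-deficient fasting ended without that library. *acr-8* was high in replicate 4 (1.55 against 1.08 to 1.15, ratio 0.847).

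In fed labelled-deficient replicate 4, *lgc-28* was high (2.73 CPM against 1.81 to 1.86, ratio 0.939), while *acr-21* (0.303 against 0.572 to 0.610, ratio 0.879) and *gbb-2* (4.70 against 6.80 to 7.0, ratio 0.914) were low. The sum over all receptor genes was also low there (206 against 233 to 237, ratio 0.885). Replicate 4 had the lowest such sum in every group, at 308 and 265 CPM in fed and fasted wild type. In fed and fasted labelled-deficient libraries it was at 206 and 220.2. The *acr*, *lgc* and ionotropic glutamate sums were lowest in replicate 4 of every group as well. The G protein-coupled sum was lowest in replicate 4 except in fasted labelled-deficient libraries, where it was highest (77.2 against 72.7 to 74.2 CPM). Germ line marker sums were highest in replicate 4 of every group, at 1749, 1277, 3127 and 3087 CPM in the same order. In fed wild type, *lgc-47* was high in replicate 2 (4.65 against 2.69 to 2.93, ratio 0.878), *acr-16* was high in replicate 1 (11.4 against 6.12 to 6.76, ratio 0.879), and the *lgc* sum was low in replicate 4 (147 against 175 to 178, ratio 0.912). In fasted wild type, *lgc-22* was high in replicate 4 (23.0 against 19.2 to 19.5, ratio 0.930), *nmr-1* was low in replicate 1 (0.525 against 0.936 to 0.998, ratio 0.870) and the *acr* sum was low in replicate 4 (38.7 against 44.5 to 44.8, ratio 0.955). No cause was tested for any of these.

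By the interaction term of the edgeR quasi-likelihood fit with TMM, 25.9% of all tested genes were called. Some genes were named for their rank in this same contrast. The fasting change differed between genotypes for 15 named genes. It was lower in the labelled-deficient libraries for *lgc-53* (log2 -1.06, adjusted p = 0.0122), *lgc-40* (-0.85, adjusted p = 0.00907), *ser-1* (-1.07, adjusted p = 0.00114) and *acr-23* (-1.42, adjusted p = 0.0168). It was higher for *lgc-39* (1.6, adjusted p = 0.000767), *glr-5* (1.24, adjusted p = 0.00813), *lgc-42* (1.33, adjusted p = 0.0409), *ser-6* (1.80, adjusted p = 0.011), *mgl-2* (1.18, adjusted p = 0.000908), *lgc-46* (1.10, adjusted p = 0.0261), *lgc-54* (1.10, adjusted p = 0.0464), *acr-21* (1.37, adjusted p = 0.0435), *dop-2* (0.68, adjusted p = 0.0221), *gbb-1* (0.74, adjusted p = 0.0319) and *gbb-2* (0.66, adjusted p = 0.0351). The calls of *lgc-42*, *lgc-46*, *lgc-54*, *acr-21*, *dop-2*, *gbb-1* and *gbb-2* were lost with library size alone. Each of these calls was also lost when certain single libraries were left out.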

How the results depend on the processing

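Counts of called receptor genes are given for wild-type fasting, labelled-deficient fasting, fed genotypes, fasted genotypes and the interaction, in that order, against 37, 20, 43, 22 and 17. Percentages in brackets are the shares of all tested genes called, against 61%, 35.3%, 56.2%, 57.5% and 25.9%. Also requiring a 2-fold change gave 14, 5, 18, 8 and 11 (26.8%, 10.8%, 20.9%, 20.3% and 11.6%). An adjusted p under 0.01 gave 25, 11, 33, 15 and 5, for which no share over all genes is given here. DESeq2 gave 38, 21, 41, 22 and 16 (62%, 35%, 56.7%, 58.3% and 27.3%), and limma voom 37, 20, 41, 21 and 16 (60.9%, 35.9%, 55.3%, 57.9% and 26.1%). No filter gave 40, 18, 42, 20 and 13 (48.2%, 22.9%, 41.6%, 42.1% and 18.3%). Library size alone gave 37, 20, 35, 20 and 11 (63%, 38.6%, 56.3%, 56.6% and 28.6%). It changed 38 named calls and moved the median of all genes by 0.34, 0.053, 0.29, 0.0047 and -0.29. Leaving out 1 library gave 32 to 36, 14 to 22, 37 to 47, 19 to 22 and 10 to 17 (55.3 to 59.4%, 28.4 to 34.7%, 50.8 to 57.7%, 52.3 to 56.6% and 20.5 to 31.7%). With the replicate number as a block the counts were 39, 24, 43, 23 and 21 (67.5%, 46.8%, 62.8%, 63.1% and 40.5%). For the fed genotypes, the comparison taken as paired, 41 of 43 calls were shared. By TPM in place of scaled CPM, 24 genes and not 41 were highest in fed wild type. Of 101 called values over 51 named genes, 67 kept their call in all fits run and none changed direction among those called. Of 154 values not called, 126 were called in no fit. Scarce reads limit the precision: 25 of the 92 genes had a mean under 1 CPM.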

Other observations

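Tissue markers gave the following counts, in the order wild-type fasting, labelled-deficient fasting, fed genotypes and fasted genotypes, each as higher and lower calls of those tested. Over all tested genes the shares were 30.4% and 30.6%, 19.6% and 15.7%, 24.6% and 31.7%, and 28.2% and 29.3%. Body wall muscle markers (10 tested) were 1 and 9, 0 and 9, 1 and 5, and 0 and 5. Intestinal markers (9 tested) were 1 and 7, 2 and 5, 0 and 9, and 3 and 4. Oocyte and early embryo markers (10 tested) were 0 and 9, 1 and 0, 3 and 0, and 10 and 0, and germ line markers (10 tested) 1 and 4, 2 and 0, 9 and 0, and 10 and 0. Zygotic embryo markers (10 tested) were 6 and 1, 4 and 0, 3 and 3, and 0 and 2. Sperm markers (5 of 10 tested) were 3 and 1, 1 and 1, 2 and 0, and 1 and 1. Pan-neuronal markers (16 tested) were 3 and 6, 2 and 2, 2 and 8, and 3 and 2. Pharyngeal muscle markers (7 tested) were 0 and 2, 0 and 1, 0 and 3, and 0 and 3, and hypodermal markers (9 tested) 2 and 3, 0 and 3, 4 and 2, and 1 and 2. With library size alone, wild-type fasting gave 8 and 4 for pan-neuronal, 4 and 0 for germ line and 0 and 7 for oocyte and early embryo markers, so the first 2 of these splits turned with the scaling. All tested genes were then 47.1% higher and 15.9% lower. The part of these markers in the receptor results was not tested.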
